A study of Mus musculus with 9 samples.

Results

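The genes described here are 7 genes of the red blood cell, measured in RNA from newborn mouse cortex: the globin genes Hba-a1, Hba-a2, Hbb-bs, Hbb-bt and Hbb-y, and Alas2 and Slc4a1. They were taken as a named set, and all RefSeq transcript rows of each gene were summed. The table held 18559 protein-coding genes with a count in any library, of which 15267 passed a filter of at least 0.5 CPM (counts scaled to a common library size) in at least 3 of 9 libraries. Of the 7 erythroid genes 6 passed. Hbb-y did not.

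Red blood cells carry oxygen with hemoglobin, a tetramer of alpha-globin and beta-globin chains that each hold a heme group. Alas2 makes the erythroid form of the enzyme that starts heme synthesis, and Slc4a1 makes band 3, the anion exchanger of the red cell membrane. Reticulocytes, the youngest circulating red cells, have lost their nucleus but still hold globin mRNA, so an organ collected with its blood can yield globin transcripts that its own cells do not make.

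RNA immunoprecipitation sequencing (RIP-seq) was performed to ask which cytoplasmic RNAs are bound by CELF2, an RNA-binding protein of neurons. The material was the cytoplasmic fraction of P0 (postnatal day 0) cortices from mice heterozygous for a Celf2 knockin (KI) allele, made by CRISPR editing, that encodes CELF2 R493H. All 9 libraries carried this allele, so no wild-type cortex was compared. The 3 conditions, each with 3 biological replicates, were input (lysate set aside before antibody was added), IgG RIP (normal rabbit IgG) and CELF2-KI RIP (a rabbit antibody to CELF2), with 10 µg of antibody for 3 hours. The sample labels name neurons, radial glia, astrocytes, oligodendrocyte precursors, microglia and endothelial cells as the cells of the cortex and name no blood cell.

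Protein-coding genes took 13523190 to 16840230 estimated counts in the CELF2-KI RIPs, 9347252 to 14965224 in the IgG RIPs and 55250725 to 78514665 in the inputs, so low-count genes were measured least precisely in the immunoprecipitates. All levels below are CPM after TMM scaling. They were not divided by transcript length, so levels of different genes are not comparable with each other. A gene was called higher or lower at an adjusted p under 0.01 and at least 2-fold (edgeR's quasi-likelihood test, Benjamini-Hochberg over all 15267 genes).

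On the GRCm38.p6 assembly the beta-like genes lay on chromosome 7 at chr7:103812524-103813923 (Hbb-bt), chr7:103826523-103827928 (Hbb-bs) and chr7:103851754-103853207 (Hbb-y). The alpha genes lay on chromosome 11 at chr11:32283672-32284486 (Hba-a1) and chr11:32296492-32297310 (Hba-a2). Alas2 lay at chrX:150547417-150570622 and Slc4a1 at chr11:102348820-102365281. Of the 7 genes 6 had a start-site window in the RefSeq promoter table of this assembly, and the 100 bases before the start are shown for the 5 globin genes of the set, because they show which copies are alike. Capitals mark 3 motifs known from globin promoters, searched on both strands, namely CCAAT, the CACCC element that erythroid Kruppel-like factors bind, and the TATA box core TATAA.
Hba-a1 (chr11:32283572-32283671, plus strand): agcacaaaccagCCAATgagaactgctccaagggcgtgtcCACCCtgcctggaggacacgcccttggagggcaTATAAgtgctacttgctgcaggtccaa
Hba-a2 (chr11:32296392-32296491, plus strand): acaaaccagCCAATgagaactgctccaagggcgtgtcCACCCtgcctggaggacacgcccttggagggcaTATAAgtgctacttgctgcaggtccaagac
Hbb-bs (chr7:103827929-103828028, minus strand): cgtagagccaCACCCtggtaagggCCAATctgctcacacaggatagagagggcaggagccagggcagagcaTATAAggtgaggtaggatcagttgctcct
Hbb-bt (chr7:103813924-103814023, minus strand): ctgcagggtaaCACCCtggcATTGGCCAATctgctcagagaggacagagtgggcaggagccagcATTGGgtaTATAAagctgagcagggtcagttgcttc
Hbb-y (chr7:103853208-103853307, minus strand): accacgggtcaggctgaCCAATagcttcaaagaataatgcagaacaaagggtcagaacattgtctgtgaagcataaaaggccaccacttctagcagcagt

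The Hba-a1 and Hba-a2 windows were identical at 247 of 247 aligned bases when the full 250 bases before each start were set against each other with a shift of 3 bases. Hbb-bs and Hbb-bt matched at 127 of 249 bases (51.0%), and Hbb-bs and Hbb-y at 31.7%. All 3 motifs were found before Hba-a1, Hba-a2, Hbb-bs and Hbb-bt, while of all 32851 promoter windows of the same length 18.9% held CCAAT, 27.2% CACCC, 10.2% TATAA and 0.472% all 3. In the Hbb-bt window an ATTGG, which is CCAAT on the other strand, lies directly before a CCAAT. A match is a description of letters and was not tested for function.

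The counts of the alpha copies showed that reads had been divided between them. The transcript sequences of the copies were not compared. Hba-a1 and Hba-a2 summed to a whole number of counts within 0.01 in 9 of 9 libraries, although each copy was whole in only 1 library. The values of the separate alpha copies are therefore estimates that depend on how shared reads were split, and each result is also given for the sum of the globins.

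The alpha-globin transcripts fell in level from input to IgG RIP to CELF2-KI RIP. Hba-a1 stood at 290, 354 and 404 CPM in input replicates 1 to 3, at 131, 137 and 146 CPM in the IgG RIPs and at 26.1, 31.2 and 32.4 CPM in the CELF2-KI RIPs. Hba-a2 stood at 168, 206 and 239 CPM in input, at 84.2, 86.7 and 133 CPM in IgG RIP and at 18.5, 16.9 and 21.2 CPM in CELF2-KI RIP. For both genes the 3 conditions did not overlap.

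The adult beta-globin transcripts had the same order of conditions. Hbb-bs stood at 346, 459 and 409 CPM in input, at 102, 160 and 246 CPM in IgG RIP and at 21.1, 21.8 and 19.9 CPM in CELF2-KI RIP. Hbb-bt, the minor adult beta-globin copy of this locus, stood at 58.7, 84.3 and 62.1 CPM in input, at 18.4, 29.0 and 37.4 CPM in IgG RIP and at 15.2, 9.58 and 8.52 CPM in CELF2-KI RIP. The conditions were again separate for both genes. For Hbb-bt the gap was small, with the highest CELF2-KI RIP library (15.2 CPM) just under the lowest IgG RIP library (18.4 CPM). The IgG RIPs were the most uneven for Hbb-bs, with replicate 3 highest and replicate 1 lowest.

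Embryonic globin was almost absent. Hbb-y, the epsilon-like chain of primitive red cells, had a count of 1 in IgG RIP replicate 2, a count of 1 in input replicate 3 and 0 in the other 7 libraries. A count of 0 allows up to 3 counts, which on the scale used here is 0.0330 and 0.0477 CPM in the inputs without a count, 0.188 and 0.215 CPM in the IgG RIPs without a count and 0.231 to 0.268 CPM in the CELF2-KI RIPs, so no fold change was formed. These limits, like the intervals of the globin share below, cover counting error only. The intervals of fold changes come from the edgeR fit and include the spread between replicates.

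The erythroid enzyme and the membrane protein had another order. Alas2 stood at 15.0, 18.4 and 20.7 CPM in input, at 29.8, 30.4 and 21.2 CPM in IgG RIP and at 11.7, 14.5 and 12.8 CPM in CELF2-KI RIP. IgG RIP was thus the highest condition for Alas2 and CELF2-KI RIP the lowest, with no overlap but small gaps to input. The lowest IgG RIP library (21.2 CPM) was just above the highest input (20.7 CPM). The highest CELF2-KI RIP library (14.5 CPM) was just under the lowest input (15.0 CPM). Slc4a1 was near the lower limit of measurement, at 1.16, 2.37 and 1.21 CPM in input, 3.69, 4.16 and 1.43 CPM in IgG RIP and 1.12, 1.31 and 1.52 CPM in CELF2-KI RIP, the last resting on 14, 17 and 17 counts. The Slc4a1 ranges overlapped between each pair of conditions. IgG RIP replicate 3 was highest of its condition for Hba-a1, Hba-a2, Hbb-bs and Hbb-bt and lowest for Alas2 and Slc4a1.

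**Figure D1:**
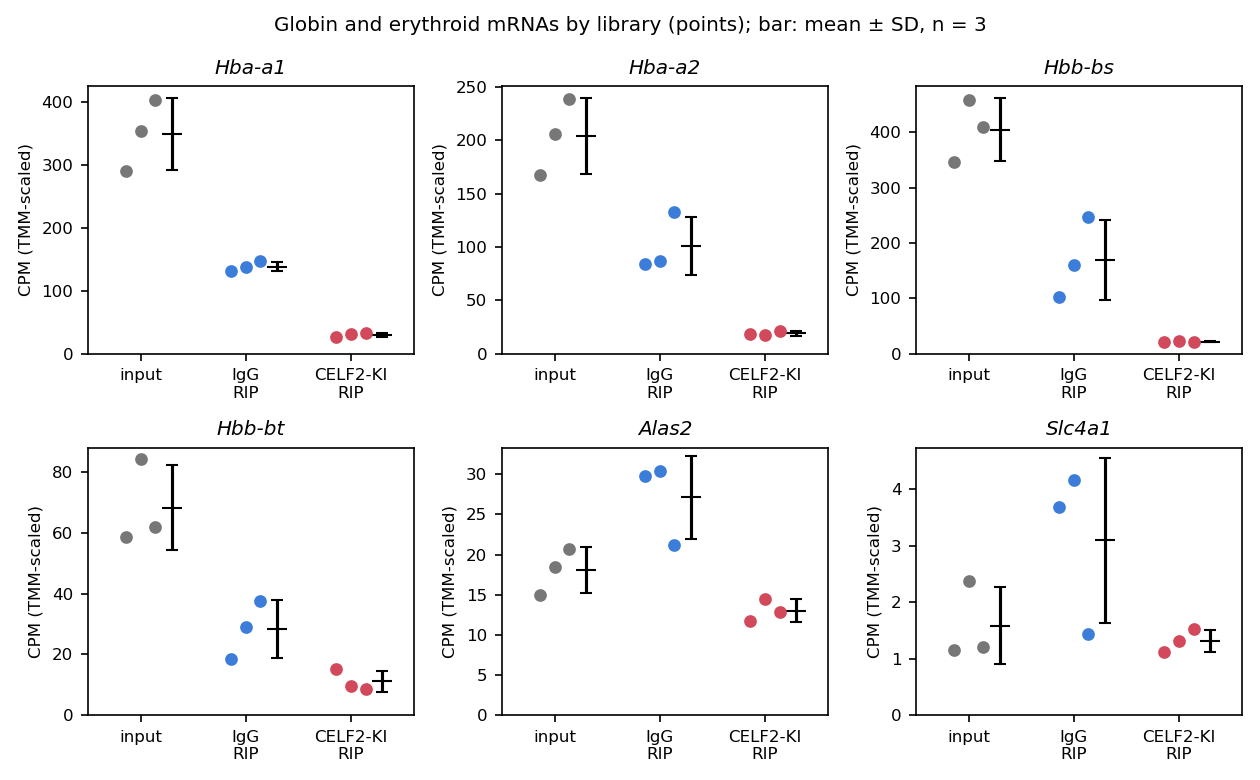
Level of each tested erythroid gene in every library, in TMM-scaled CPM on a linear axis from 0 whose range differs between genes, by condition. Points are libraries in the order of replicates 1 to 3, and bars are mean ± SD (n = 3). The Hba-a1 points run from 26.1 to 32.4 CPM in CELF2-KI RIP and from 290 to 404 CPM in input, whereas the Slc4a1 points of the 3 conditions overlap.

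Summed over the 5 genes, globins reached 1026 ± 143 CPM in input, 437 ± 115 CPM in IgG RIP and 80.9 ± 1.29 CPM in CELF2-KI RIP (SD, n = 3 each). As a share of protein-coding counts this was 0.117% ± 0.0164, 0.0465% ± 0.0117 and 0.00668% ± 0.0005. Within a library the share was tightly set by depth. The deepest input gave 0.128% with a 95% Wilson interval of 0.127% to 0.128%, and the shallowest CELF2-KI RIP gave 0.00680% with an interval of 0.00638% to 0.00726%. The spread between replicates was therefore mostly larger than the counting error. Between the inputs, a smaller number of red cells and less globin RNA per cell cannot be told apart in bulk RNA. Blood content could differ between cortices.

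CELF2-KI RIP against IgG RIP addresses which RNAs the CELF2 antibody recovered beyond nonspecific binding. Of the 6 erythroid genes tested, 5 were lower in CELF2-KI RIP (Hba-a1, Hba-a2, Hbb-bs, Hbb-bt and Alas2) and 0 were higher, beside 13.6% of all tested genes called lower and 13.4% called higher. Under total-count scaling the split over all genes was 937 higher and 3421 lower, against 2050 and 2069 with TMM, and under upper-quartile scaling 1212 and 3017. No erythroid gene was higher at an unadjusted p under 0.05 either (0 by edgeR and 0 by DESeq2). In 5 of 6 genes all CELF2-KI RIP libraries lay below all IgG RIP libraries, as did 27.4% of all tested genes.

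Summed globins were 5.41-fold lower in CELF2-KI RIP than in IgG RIP (log2 fold change -2.43, SE 0.19, edgeR quasi-likelihood adjusted p = 9.32e-06). The largest difference was that of Hbb-bs, 8.06-fold (log2 -3.01, SE 0.28, edgeR adjusted p = 1.89e-05), and 78 of 15267 genes (0.511%) had a lower fold change. Hba-a1 was 4.62-fold lower (edgeR adjusted p = 6.21e-06) and Hba-a2 5.36-fold lower (edgeR adjusted p = 1.35e-05). Hbb-bt differed less, by 2.55-fold (log2 -1.35, SE 0.30, edgeR adjusted p = 0.00312). The Hbb-bt call rested on single libraries, since the edgeR adjusted p was 0.0166 without CELF2-KI RIP replicate 2, 0.0159 without CELF2-KI RIP replicate 3 and 0.0105 with a replicate block. With Hbb-bs and Hbb-bt summed before the fit, which does not depend on the split of reads between them, the adult beta globins were 6.16-fold lower (log2 -2.62, edgeR adjusted p = 3.49e-05) and the alpha globins 4.91-fold lower (edgeR adjusted p = 7.73e-06).

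Alas2 was 2.09-fold lower in CELF2-KI RIP than in IgG RIP (log2 -1.06, SE 0.19, edgeR adjusted p = 0.000878), close to the 2-fold limit. It fell under that limit without CELF2-KI RIP replicate 1 (-0.99), without IgG RIP replicate 1 (-0.99) or without IgG RIP replicate 2 (-0.97). Slc4a1 had a log2 fold change of -1.23 (SE 0.48, edgeR adjusted p = 0.0499) and was not called. It passed without IgG RIP replicate 3 (-1.58, edgeR adjusted p = 0.00614). The median of the 6 genes was -1.78 on the log2 scale, beside -0.06 over all tested genes. Reads are divided between the alpha copies and among the beta copies, so these are not 6 independent values.

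Against input, which shows the RNA present before immunoprecipitation, the 4 adult globins were lower in CELF2-KI RIP and 0 of the 6 erythroid genes were higher, beside 15.5% and 14.6% of all tested genes (0 higher at an unadjusted p under 0.05 by edgeR or DESeq2). Under total-count scaling the split over all genes was 531 higher and 3581 lower, against 2226 and 2366 with TMM, 1177 and 2964 with upper quartiles and 1566 and 2713 with DESeq2 size factors. Summed globins were 12.7-fold lower (log2 -3.67, SE 0.20, edgeR adjusted p = 6.23e-07). Hbb-bs was 19.3-fold lower (edgeR adjusted p = 3.06e-06), Hba-a1 11.7-fold (edgeR adjusted p = 2.16e-07), Hba-a2 10.8-fold (edgeR adjusted p = 1.71e-06) and Hbb-bt 6.17-fold (edgeR adjusted p = 4.86e-05). The adult beta globins summed were 14.8-fold lower (edgeR adjusted p = 4.57e-06). For Hbb-bs 67 of 15267 genes (0.439%) had a lower fold change. The 4 calls held without each library in turn and with a replicate block.

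Alas2 and Slc4a1 were not called between CELF2-KI RIP and input. Alas2 had a log2 fold change of -0.47 (95% interval -0.89 to -0.06, edgeR adjusted p = 0.049), and with CELF2-KI RIP and input alone paired by replicate number the value was -0.69 (edgeR adjusted p = 0.00341), still under 2-fold. Slc4a1 had a log2 fold change of -0.27, with a 95% interval of -1.31 to 0.77 that holds differences of more than 2-fold lower, so its low counts set the limit here. All CELF2-KI RIP libraries lay below all inputs in 5 of 6 genes, with Slc4a1 the exception, and in 31.8% of all tested genes. The 6 genes had a median log2 fold change of -3.03, beside 0.19 over all tested genes. This median lies among the globin values and far from those of Alas2 and Slc4a1.

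IgG RIP against input compares the RNA retained by the beads and nonspecific IgG with the starting RNA, as levels relative to each library. The 4 adult globins were lower in IgG RIP, where 5% of all tested genes were called lower and 6.79% higher. The split was 1037 higher and 764 lower with TMM, 885 and 1020 with total counts and 912 and 987 with DESeq2 size factors. Summed globins were 2.35-fold lower (log2 -1.23, SE 0.18, edgeR adjusted p = 0.000705). The 4 genes lay within a narrow range, from 2.02-fold for Hba-a2 (edgeR adjusted p = 0.00304) to 2.53-fold for Hba-a1 (edgeR adjusted p = 0.000174), and all 3 IgG RIP libraries lay below all inputs in these 4 of 6 genes, as in 29.4% of all tested genes. The number of genes called dropped from 4 to 1 without IgG RIP replicate 1, IgG RIP replicate 2, input replicate 2 or input replicate 3.

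Alas2 and Slc4a1 had positive values between IgG RIP and input, which did not pass. Alas2 had a log2 fold change of 0.59 (edgeR adjusted p = 0.0276) and Slc4a1 of 0.96 (edgeR adjusted p = 0.113). The number of erythroid genes called higher was 0, with 1, Alas2, at an unadjusted p under 0.05 by edgeR and by DESeq2. The 3 comparisons share their libraries, so they are not independent of each other.

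**Figure D2:**
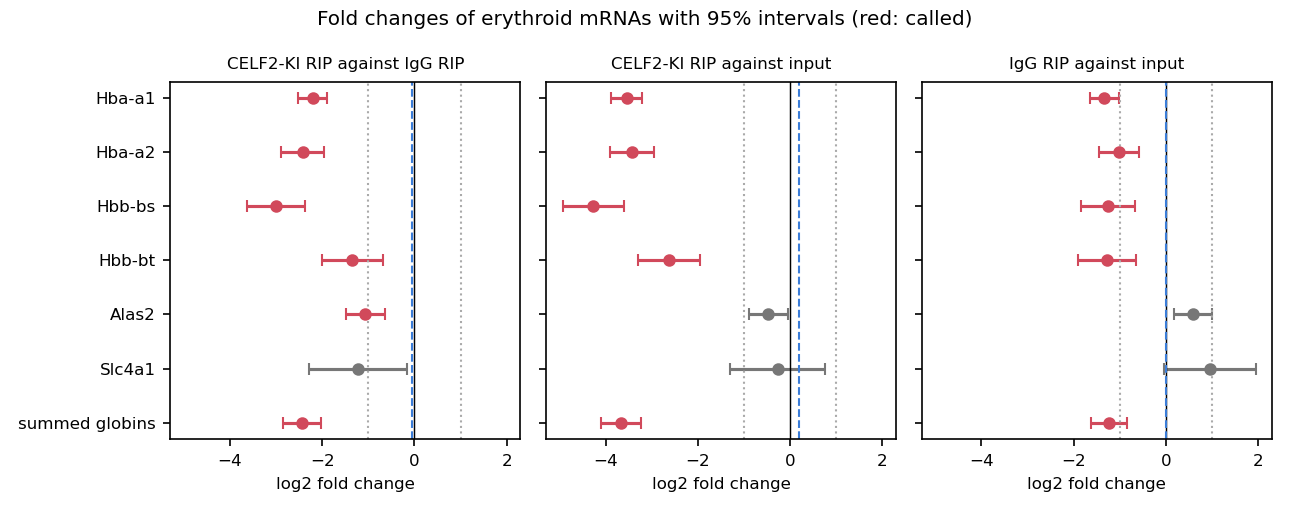
Log2 fold change of each tested erythroid gene and of the summed globins in the 3 comparisons, from the edgeR quasi-likelihood fit over 9 libraries; bars are 95% intervals, dotted lines mark 2-fold, the dashed blue line is the median of all tested genes and red marks genes called. The summed globins lie at -2.43, -3.67 and -1.23, and the Slc4a1 interval crosses 0 against input.

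Ratios between members were formed within each library, where scaling between libraries has no part. They were tested with an exact two-sided permutation test of the variance between condition means over all assignments of the 9 libraries, whose smallest p is 0.00357, with adjustment over the 6 ratios computed. The alpha to beta ratio, (Hba-a1 + Hba-a2) over (Hbb-bs + Hbb-bt) in estimated counts, was 1.18 ± 0.171 in input, 1.32 ± 0.423 in IgG RIP and 1.55 ± 0.327 in CELF2-KI RIP. On the log2 scale these conditions were not distinguishable (exact permutation p = 0.4, adjusted 0.4). The share of Hba-a2 in the alpha counts likewise showed no difference beyond the replicate spread, at 36.9% ± 0.267, 41.8% ± 4.99 and 38.8% ± 3.21 (exact permutation p = 0.275, adjusted 0.33). Counts were not corrected for transcript length, so these are not chain ratios.

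The share of Hbb-bt in the adult beta counts had separate values in CELF2-KI RIP. It was 41.8%, 30.5% and 29.9% in CELF2-KI RIP, whereas IgG RIP had 15.3%, 15.3% and 13.2% and input had 14.5%, 15.5% and 13.2%. Each CELF2-KI RIP library lay above each of the other 6 libraries. The permutation test gave an exact p of 0.0321, which did not pass after adjustment (0.0643). Without IgG RIP replicate 2 or IgG RIP replicate 3 the adjusted exact permutation p was 0.0429 and 0.0286, with the same difference of 19.7 percentage points between CELF2-KI RIP and input. Hbb-bs and Hbb-bt summed to whole counts in 4 of 9 libraries, and neither was whole in any, so the division of reads among beta copies enters this share, and its part in the difference was not tested.

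Relative to globin RNA, Alas2 rose from input to IgG RIP to CELF2-KI RIP. Alas2 stood at 17.4, 16.7 and 18.6 counts per 1000 globin counts in input, at 88.8, 73.7 and 37.7 in IgG RIP and at 144, 182 and 157 in CELF2-KI RIP. The 3 conditions did not overlap (exact permutation p = 0.00357, the smallest possible, adjusted 0.0107). Slc4a1 differed in the same test, at 1.53 ± 0.551 counts per 1000 globin counts in input, 7.88 ± 4.64 in IgG RIP and 16.3 ± 2.34 in CELF2-KI RIP (n = 3 each, exact permutation p = 0.00357, adjusted 0.0107), but its adjusted exact permutation p was 0.0786 whichever input was left out. The erythroid genes thus did not keep a fixed ratio to each other through the immunoprecipitation. Both of these ratios were chosen after the values of the genes had been seen.

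**Figure D3:**
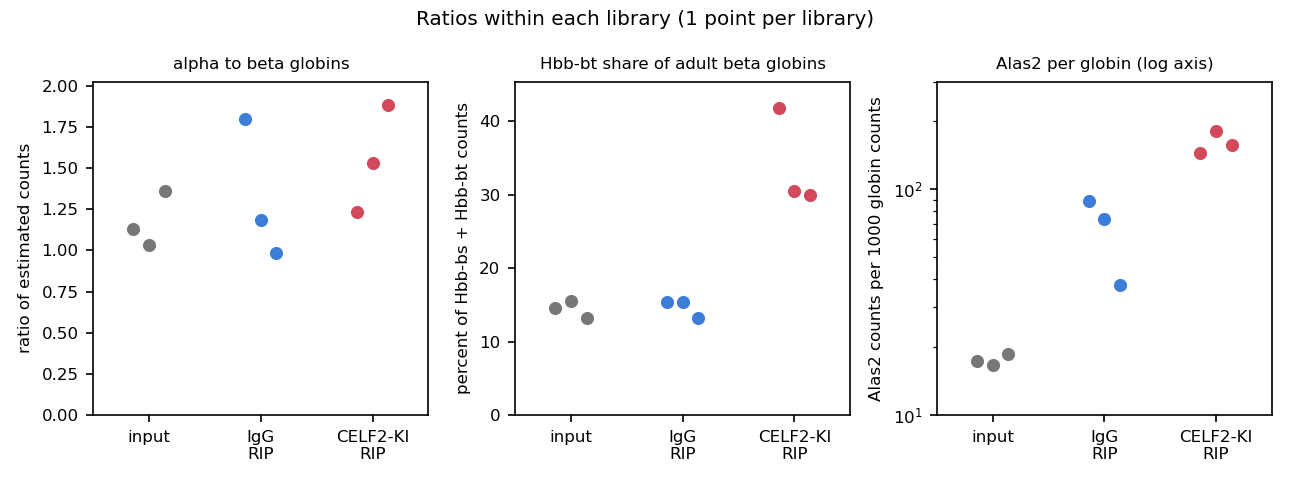
Ratios between erythroid genes within each library, by condition, with 1 point per library (n = 3 per condition) and a log axis for Alas2. Alas2 per 1000 globin counts runs from 16.7 to 18.6 in input and from 144 to 182 in CELF2-KI RIP, and the Hbb-bt share is at 29.9% or more in CELF2-KI RIP and at 15.5% or less elsewhere.

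The counts of Alas2 came from a pair of RefSeq transcripts. NM_009653.3 had 846, 1468 and 995 estimated counts in input, 371, 276 and 85.5 in IgG RIP and 146, 188 and 144 in CELF2-KI RIP. NM_001102446.1 had 98.6, 204 and 284 in input, 106, 31.0 and 211 in IgG RIP, and 0, 0.194 and 0 in CELF2-KI RIP. Its share of Alas2 counts was 14.9% ± 6.34 in input, 34.5% ± 32.3 in IgG RIP and 0.0344% ± 0.0596 in CELF2-KI RIP, where the libraries with 0 counts allow up to 2.06% and 2.08%. The difference did not pass (exact permutation p = 0.0536, adjusted 0.0804), was formed after the values were seen, and rests on pseudoalignment of transcripts that share most of their sequence. In IgG RIP replicate 3 this transcript held 71.1% of the Alas2 counts.

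Of the other globin genes of red cells Hbb-bh2 had the most counts. Hbb-b1 and Hbb-b2, beta copies of another mouse haplotype that share reads with Hbb-bs and Hbb-bt, had at most 15.8 and 9.75 estimated counts in any library and 0 in the CELF2-KI RIPs. Hbb-bh1 and Hba-x, which encode embryonic chains, had 3 counts or fewer in each library. Of the 7 genes on this list 2 were tested. Hbb-bh2 stood at 3.84, 3.92 and 3.66 CPM in input, at 29.5, 35.5 and 16.9 CPM in the IgG RIPs and at 4.79, 9.31 and 6.64 CPM in the CELF2-KI RIPs, so IgG RIP was its highest condition. It was lower in CELF2-KI RIP than in IgG RIP (log2 -1.98, edgeR adjusted p = 0.000317) and higher in IgG RIP than in input (log2 2.84, edgeR adjusted p = 0.000194), but its counts came from the predicted transcript XM_006508005.3 and the curated NM_001127686.1 was at 0 in all 9 libraries. Hbq1a, a theta-like alpha gene, did not pass in any comparison.

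Of the globins of other cells 2 of 3 were higher in CELF2-KI RIP than in IgG RIP, beside 13.4% of all tested genes. Neuroglobin (Ngb), a heme protein of neurons, averaged 1.55 ± 0.295 CPM in input, 0.622 ± 0.308 CPM with IgG and 3.88 ± 0.584 CPM with the CELF2 antibody (SD, n = 3 each), and was 6.32-fold higher in CELF2-KI RIP than in IgG RIP (edgeR adjusted p = 0.000417). Its IgG RIP libraries stood at 0.688, 0.892 and 0.287 CPM, where 3 counts are 0.188, 0.297 and 0.215 CPM. The Ngb fold change thus rests on few IgG RIP counts. Cytoglobin (Cygb) was 2.18-fold higher against IgG RIP (edgeR adjusted p = 0.00151). Myoglobin (Mb) was not called (log2 1.72, edgeR adjusted p = 0.164). Against input 0 of the 3 were called, with Ngb at an edgeR adjusted p of 0.0104 and a log2 fold change of 1.32. Between IgG RIP and input none of the 3 was called, and their log2 fold changes of -1.34 (Ngb), -0.88 (Cygb) and -1.06 (Mb) were negative like those of the adult globins, with edgeR adjusted p of 0.0261, 0.00945 and 0.389.

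Heme synthesis, which is not confined to erythroid cells, was partly lower in CELF2-KI RIP. Of 8 enzymes other than Alas2, all tested, 3 were lower than in IgG RIP and 4 lower than in input, beside 13.6% and 15.5% of all tested genes. The medians were -0.73 and -0.81 on the log2 scale, and 0 were called between IgG RIP and input. Alad, which joins the aminolevulinate made in the preceding step, was 2.09-fold lower against IgG RIP (edgeR adjusted p = 0.00104). Ppox, which acts late in the pathway and was named after its values were seen, was 3.33-fold lower (edgeR adjusted p = 0.00146). Alas1, the form of the Alas enzyme found in all tissues, had a log2 fold change of -0.53 against IgG RIP (edgeR adjusted p = 0.00749, under 2-fold), and Fech, which inserts the iron, of -0.22 (edgeR adjusted p = 0.259).

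Genes of the red cell membrane and its skeleton had negative fold changes against IgG RIP in 9 of 11 cases and mostly positive ones against input. Of 14 genes other than Slc4a1, these 11 were tested. Against IgG RIP 1 was lower (Epb42) and 0 higher, beside 13.6% and 13.4% of all tested genes. Against input 4 were higher and 1 lower, beside 14.6% and 15.5%. Between IgG RIP and input 5 were higher and 1 lower in IgG RIP, beside 6.79% and 5%. The medians were -0.75, 1.11 and 1.21 on the log2 scale, and the difference from the globins was not tested. Add2, the beta subunit of the skeletal protein adducin that neurons also make, averaged 543 ± 46.9 CPM in input, 766 ± 11.6 CPM with IgG and 1174 ± 91.3 CPM with the CELF2 antibody and was 2.16-fold higher than in input (edgeR adjusted p = 1.55e-05). Sptb, a beta spectrin, was 3.02-fold higher in IgG RIP than in input (edgeR adjusted p = 3.78e-05) and had a log2 fold change of -0.97 in CELF2-KI RIP against IgG RIP (edgeR adjusted p = 4.37e-05, under 2-fold). Epb41, protein 4.1, was not called in any comparison. Gypc, glycophorin C, named after its values were seen, was the gene lower than input in both immunoprecipitates, by 6.56-fold in CELF2-KI RIP and 3.23-fold in IgG RIP (edgeR adjusted p = 2.4e-05 and 0.00086).

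Of the transcription factors of red cell precursors 1 was called higher in CELF2-KI RIP, beside 13.4% of all tested genes against IgG RIP and 14.6% against input. Gata1, Klf1 and Gfi1b did not pass the filter, which left 5 of 8 tested. Tal1, named after its values were seen, was 2.89-fold higher in CELF2-KI RIP than in IgG RIP (edgeR adjusted p = 0.00117) and 2.41-fold higher than in input (edgeR adjusted p = 0.00239), and 0 were lower. Bcl11a, a repressor of fetal globin genes that cortical neurons also make, had a log2 fold change of 0.48 against IgG RIP (edgeR adjusted p = 0.00264, under 2-fold). Lmo2 and Zfpm1, partners of the erythroid factors, had log2 fold changes of 0.34 and -0.60 against IgG RIP and were not called.

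Of 18 other erythroid genes 14 were tested. Against IgG RIP 3 were higher and 2 lower, beside 13.4% and 13.6% of all tested genes. Against input 3 were higher and 5 lower, beside 14.6% and 15.5%. Between IgG RIP and input 1 was higher and 1 lower, beside 6.79% and 5%. Prdx2, a peroxiredoxin abundant in red cells and also made by neurons, was 2.18-fold lower in CELF2-KI RIP than in IgG RIP (edgeR adjusted p = 0.00235) and 3.91-fold lower than in input (edgeR adjusted p = 6.88e-05). Tfrc, the transferrin receptor, went the other way and was 2.28-fold higher against IgG RIP (edgeR adjusted p = 0.000319). Mkrn1, which encodes a ubiquitin ligase, was 2.08-fold higher against input (edgeR adjusted p = 1.2e-05). The list medians were -0.10 against IgG RIP and -0.01 against input.

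**Figure D4:**
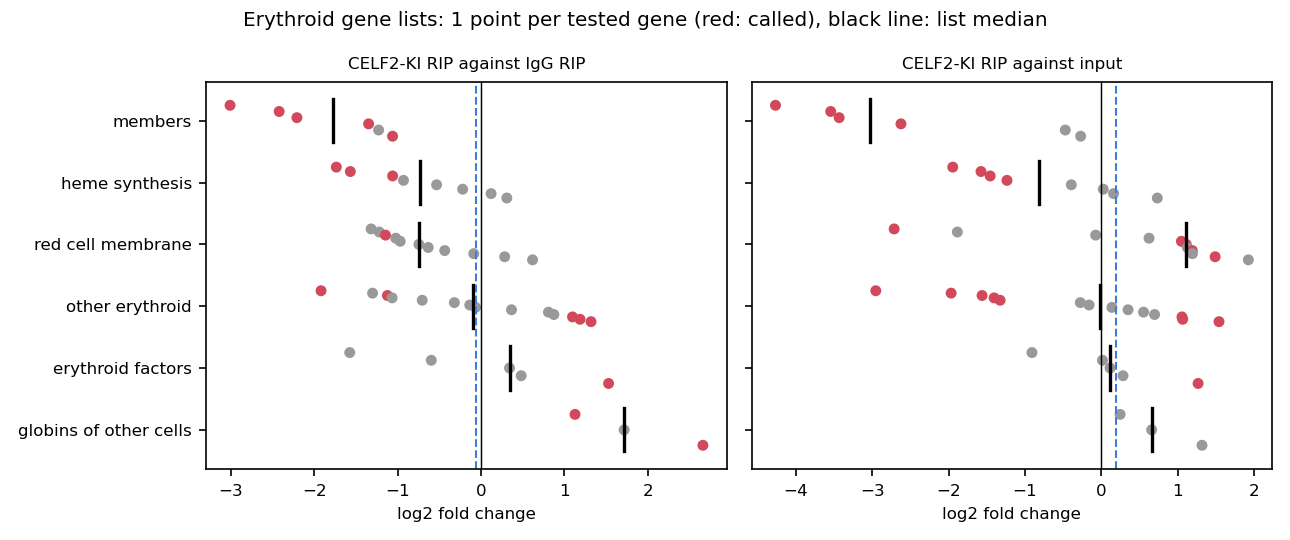
Log2 fold change of CELF2-KI RIP against IgG RIP and against input for each tested gene of each list. Points are genes (red where called), black bars are list medians and the dashed blue line is the median of all tested genes. The erythroid genes have medians of -1.78 and -3.03, and the red cell membrane list has medians of -0.75 and 1.11.

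Marker lists of other cells were read in the same fit. Of 7 excitatory neuron genes, CELF2-KI RIP had 4 higher and 0 lower when set against IgG RIP, with 3 and 0 when set against input. Of 7 radial glia genes 0 were higher and 4 lower against each. Among microglial genes, 7 of 8 tested, 1 was higher and 3 lower against IgG RIP and 1 higher and 5 lower against input. The higher genes differed, Cx3cr1 against IgG RIP and Csf1r against input, both named after their values were seen. Csf1r stood at 0, 0 and 0.00074 CPM in input and at 0, 2.92 and 3.43 CPM in CELF2-KI RIP, so its fold change is not a usable estimate. Of 12 genes of platelets and white blood cells 7 were tested, with 2 lower against IgG RIP and 3 lower against input. The latter included S100a8, named after its values were seen, which passed the filter only through its input values. It stood at 0.461, 0.749 and 0.647 CPM in input and at 0 CPM in each CELF2-KI RIP library. Its fold change is likewise not a usable estimate. Endothelium and pericyte genes, 9 of 9 tested, had 2 and 3 lower, and choroid plexus genes, 4 of 4 tested, had 0 and 1 lower. Over all tested genes 13.4% were higher and 13.6% lower against IgG RIP, and 14.6% and 15.5% against input. The lists are short, and their counts were not tested against these shares. Lower relative levels in CELF2-KI RIP were thus also measured in genes of other cells. Amounts of RNA recovered were not measured, and the part of cell of origin in the globin values was not tested.

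The genes whose log2 CPM was most like that of summed globins over the 9 libraries were sought among 11527 tested genes of at least 5 CPM. They were Slc50a1, Ptgds, Ppp1r11, H4c3 and Dym, with Pearson r from 0.998 to 0.996. The 9 points share 3 conditions that differ strongly, so a high r is common to genes with the same order of conditions. Ptgds averaged 423 CPM in input, 154 CPM with IgG and 20.8 CPM with the CELF2 antibody. Among the erythroid genes themselves, Alas2 had r = 0.522 and Slc4a1 r = 0.190 with summed globins. After the condition means were taken off, the closest genes were Gpc3, Ctsk, Slc22a8, Itga5 and Gnb4, with r from 0.993 to 0.969, and these had no gene in common with the first 5. They have the highest r of 11527 genes, from 9 points with 3 condition means removed. Whether r this high exceeds what chance gives among so many genes was not tested.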

How the data were processed

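The authors trimmed and checked the reads (fastp 0.23.4, FastQC 0.11.9), removed ribosomal reads (Ribodetector 0.3.1) and quantified transcripts with kallisto 0.51.1, versions as in the submitters' processing notes, which also name mm10. The deposited values are estimated counts per RefSeq transcript and library, not normalized. Pseudoalignment divides reads shared by near-identical copies. Of 107384 transcript rows 86722 matched a gene of the GRCm38.p6 RefSeq table by accession without version, and rows without a gene held 9.24% to 43.464% of counts per library.

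Here protein-coding rows were summed per gene, rounded and filtered (at least 0.5 CPM in at least 3 libraries, a limit set here because the study's is not given in the sources used here), then fitted with TMM factors and edgeR 4.0.16 (quasi-likelihood test, 1 mean per condition) in R 4.3.3. The CPM values given are TMM-scaled. Samples were grouped by their labels. The alternatives were other scalings, filters and gene sets, DESeq2 1.42.0, glmTreat, the replicate block and leaving out each library. Named genes were the 7 erythroid genes, the 3 tested genes of highest mean CPM on each erythroid or globin list, and the 5 genes most like summed globins by each measure. Members, lists and comparisons were chosen with earlier results of these data known. The design fixed 3 ratios, of which the Hbb-y share was not formed at these counts, and 4 were added after the values were seen. The script was tested on simulated data. Deviations from condition means correlated weakly in all 3 same-numbered pairs of CELF2-KI RIP and input (0.110, 0.117 and 0.122 over 15267 genes). These numbers were taken as pairs in an added fit, not in the main fit. They did not in the other comparisons.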

Additional observations from a re-analysis of the deposited data

How the results depend on the processing

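The direction of Hba-a1, Hba-a2, Hbb-bs, Hbb-bt and Alas2 held in all 3 comparisons under each alternative run, which covered the 6 tested erythroid genes and no gene of the other lists. The only reversal was Slc4a1 in CELF2-KI RIP against input, which ranged from -0.45 to 0.033 on the log2 scale when single libraries were left out and was above 0 without input replicate 2. Summed globins ranged from -2.80 to -2.21 (CELF2-KI RIP against IgG RIP), -4.13 to -3.61 (CELF2-KI RIP against input) and -1.45 to -1.07 (IgG RIP against input), the last from leaving out libraries. The all-gene median moved by more than 0.1 with scaling: for CELF2-KI RIP against IgG RIP it was -0.42 with total counts, -0.32 with upper quartiles and -0.35 with noncoding genes included, beside -0.06 with TMM.

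With glmTreat, which tests against 2-fold itself, 3 erythroid genes were lower in CELF2-KI RIP than in IgG RIP, and 0 in IgG RIP than in input (1 at an unadjusted p under 0.05), beside 622 and 53 of 15267 genes (2069 and 764 with the ordinary test). In the latter comparison summed globins kept -1.23 with an edgeR adjusted p of 0.405. With the ordinary test, leaving out single libraries gave 4 to 6 genes lower in CELF2-KI RIP than in IgG RIP and 1 to 4 lower in IgG RIP than in input. The Hbb-bt share difference between CELF2-KI RIP and input ranged from 15.8 to 21.7 percentage points.

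With a replicate block 4, 4 and 3 genes were lower in the 3 comparisons, in the order above, and Hbb-bt was lost from the first and the last. The paired fit of CELF2-KI RIP and input alone, chosen after seeing the data, called 4 genes and gave summed globins -3.88 (edgeR adjusted p = 4.22e-06). Of the values of the 6 genes, the Hba-a2 share and the ratios with Alas2 or Slc4a1 under alternatives, 362 kept their direction and side of the threshold, 31 no longer passed and 2 newly passed, which were Slc4a1 against IgG RIP and the Alas2 transcript share. Slc4a1 and the transcript shares of Alas2 are limited by counts.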
